A study of Mus musculus with 4 samples.

Results

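Lysosomal acid lipase (LAL), the product of *Lipa*, belongs to the soluble enzymes that degrade lipids, glycans, sulfated sugars and proteins inside lysosomes. The genes described here are 43 of these: *Lipa* itself, other lysosomal lipid hydrolases and their cofactors, glycosidases, sulfatases, proteases, phosphatases and a nuclease, with *Hgsnat* and *Gnptab*, which serve the same pathway. Members were taken by name, by a rule that does not use their levels, though earlier results of these data were known. A member is a gene with a probe set naming no other gene, and all 43 have one among the 19938 genes measured. Only *Arsb* has several probe sets, and the brightest stands for it.

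The cells were mouse bone marrow cells carrying the Ly6G antigen, called myeloid-derived suppressive cells (MDSCs) by the study, and came from wild-type (lal+/+) mice and from mice without LAL (lal-/-). All were 5 months of age and on an FVB/N background after 10 generations of back-crossing. 2 Affymetrix Mouse Gene 1.0 ST arrays were run for each genotype. The labels give CD11b and Gr-1 as the antigens of the cells, whereas the methods give magnetic selection on Ly6G. The methods give 5 mice for the cell selection and do not say how these relate to the 2 arrays of a genotype, and the LAL deficiency is not described as limited to myeloid cells. P-values rest on the spread between 2 arrays, which may be technical, with variances that limma moderates using those of all genes. An exact two-sided permutation test of 2 against 2 cannot go below 0.333.

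Lysosomal enzymes are made in the endoplasmic reticulum, tagged with mannose 6-phosphate in the Golgi apparatus and carried to the lysosome by receptors. Many of those that degrade glycans and sphingolipids act in a chain, so that each enzyme removes the group that the one before it exposed. In phagocytes the cathepsins also trim antigens, serine protease zymogens and the invariant chain of MHC class II. Genes of many lysosomal enzymes carry in their promoters the letters CACGTG, an E-box that the transcription factors of the TFEB family bind.

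Values are log2 levels after quantile normalization, and a difference is lal-/- minus lal+/+. Calls required a limma adjusted p under 0.05 together with a 2-fold difference or more. An ordinary linear model, which uses only the spread of each gene's own arrays, called 0 members and 0 of all genes after adjustment. Of the 43 members, 5 rose in lal-/- MDSCs (*Galc*, *Arsb*, *Smpd1*, *Galns* and *Gusb*), 7 fell (*Ctss*, *Lgmn*, *Lipa*, *Acp5*, *Scpep1*, *Ctsb* and *Ctsc*) and 31 were not called. Among all 19938 genes 7.56% were called higher and 3.24% lower, against 11.6% and 16.3% of the members. All 5 genes that rose encode enzymes acting on sphingolipids or glycosaminoglycans, and 5 of the 7 that fell encode proteases. This grouping describes the called genes, and most members of these kinds were not called. Of 8 cysteine cathepsins and legumain 4 fell (50%), and of 4 aspartic and serine proteases 1 (25%), beside 3.24% of all genes. Of 12 glycosidases 1 rose (8.33%), of 5 sulfatases with *Hgsnat* 2 (40%), and of 10 lipid genes 2 rose (20%) and 1 fell (10%). Over all genes 7.56% rose. By adjusted p alone, without the fold threshold, 12 members were higher and 11 lower, 53.5% of the members, beside 19.8% of all genes higher, 9.85% lower and 29.6% in either direction. These shares describe the genes listed and carry no test. In bulk RNA, fewer cells of a type and less RNA per cell cannot be told apart. All 4 arrays lay below background in 8863 of the 19938 genes and in 4 members (*Gaa*, *Naglu*, *Arsa* and *Ctsk*). Among the 10587 genes at or above the median level, which include 38 members and all 12 called ones, 13.5% were called higher and 5.31% lower. Of those 38 members 5 were called higher and 7 lower. At this level the share of members called higher was no larger than that of all genes. Background was set on each array at the 95th percentile of 1035 olfactory receptor probe sets, and came to 6.76 and 6.86 for lal+/+ against 6.32 and 6.31 for lal-/-.

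**Figure D1:**
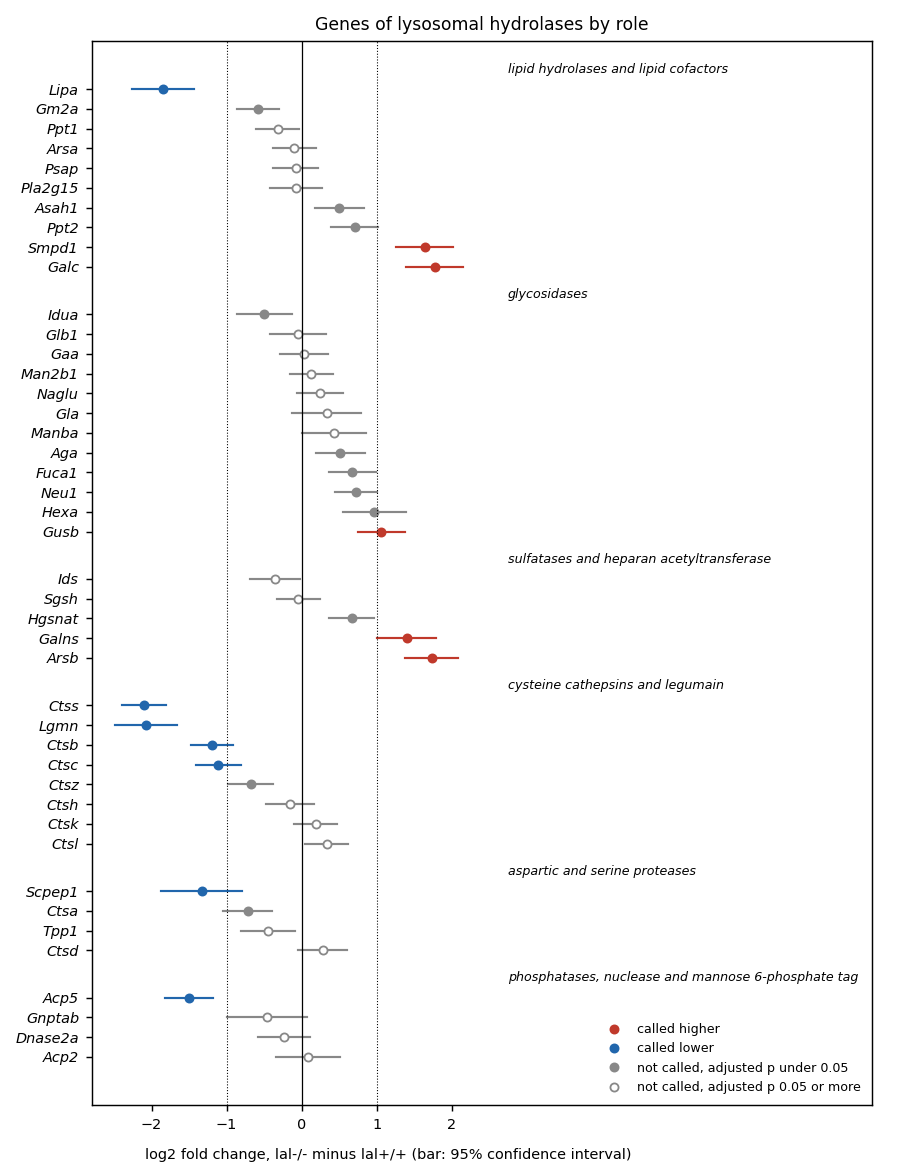
Log2 fold change (lal-/- minus lal+/+) of the 43 members, grouped by role, with 95% confidence intervals from the moderated fit, and color for calls. Dotted lines mark a 2-fold change. The 4 called cysteine proteases lie between -2.10 and -1.11, while the called sulfatase genes *Galns* and *Arsb* lie at 1.40 and 1.73.

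The median log2 fold change over the members was -0.05, beside 0.08 over all genes, and the members spread from -2.10 to 1.77. Both lal-/- arrays lay above both lal+/+ arrays in 19 members and below them in 17, and the arrays overlapped in 7. Over all genes the corresponding shares were 41.6% above and 24.1% below. Standard errors of the members' log2 fold changes ran from 0.12 to 0.23.

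The deposited columns had medians of 6.30 and 6.36 for lal+/+ and 6.15 and 6.15 for lal-/-, and they were quantile normalized. When the arrays were set to 1 common median, 10 members were called higher and 5 lower, and with the values as deposited 7 were higher and 5 lower. The 5 genes that rose kept their calls in both settings, as did *Ctss*, *Lgmn*, *Lipa*, *Acp5* and *Scpep1* among those that fell. *Ctsb* and *Ctsc* lost theirs, at -0.74 and -0.72 with the values as deposited and at -0.56 and -0.54 with a common median. Over all genes the share of calls that were higher was 70% after quantile normalization, 76.1% as deposited and 84.9% with a common median, and the median log2 fold change was 0.08, -0.05 and 0.12.

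**Figure D2:**
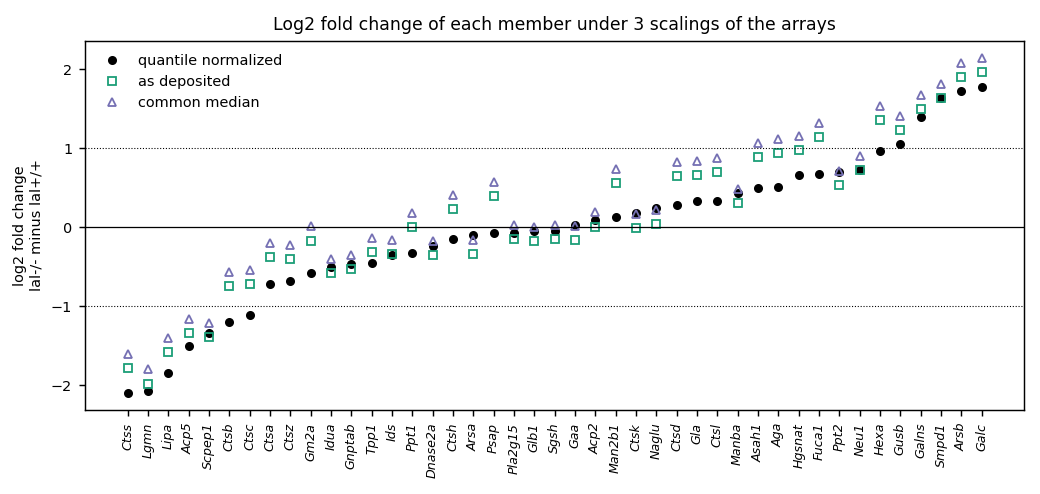
Log2 fold change (lal-/- minus lal+/+) of each of the 43 members under quantile normalization, as deposited, and with a common median, with members ordered by the first. *Ctsb* moves from -1.20 to -0.74 and -0.56, whereas *Lgmn* stays at or below -1.80 in all 3.

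Genes of the TFEB family were not called. *Tfe3* read 6.72 and 6.14, below background, against 7.45 and 7.33, so that its fitted difference of 0.96 (adjusted p = 0.0110) stands beside a bound of at least 1.49-fold. *Tfeb*, also below background in lal+/+ cells, was at 0.38 (adjusted p = 0.112), *Tfec* at -0.13 and *Mitf*, below background in both genotypes, at -0.25. The CACGTG letters were looked for on both strands (they read the same on each) in promoter windows of 300 bases, 250 before and 50 after a start, taken from RefSeq on GRCm38.p6. Windows were found for 37 of the members, of which 10 held the letters, beside 9.50% of 15614 measured genes with a window. 0 of the 4 genes that rose and have a window held them, 1 of the 6 that fell (*Lgmn*) and 9 of the 27 not called (*Arsa*, *Ctsa*, *Ctsd*, *Ctsl*, *Gaa*, *Gla*, *Glb1*, *Naglu* and *Sgsh*). The longer form TCACGTGA was in 3 members (*Ctsa*, *Ctsd* and *Gla*) and in 1.52% of all genes. Windows of 30 bases around the E-box, in capitals, are shown for *Lgmn*, the only called member with it, and for 5 members that were not called, because the letters occur in both kinds of member:
Lgmn (chr12:102439124-102439153, minus strand): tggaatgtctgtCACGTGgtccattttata
Ctsa (chr2:164833749-164833778, plus strand): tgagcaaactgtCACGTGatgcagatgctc
Ctsd (chr7:142387908-142387937, minus strand): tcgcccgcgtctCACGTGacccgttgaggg
Gla (chrX:134601182-134601211, minus strand): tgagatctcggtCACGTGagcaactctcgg
Glb1 (chr9:114401018-114401047, plus strand): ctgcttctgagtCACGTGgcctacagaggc
Naglu (chr11:101070009-101070038, plus strand): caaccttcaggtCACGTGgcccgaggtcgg
The E-box starts 49 bases before the start of *Lgmn*, 12 before that of *Ctsa*, 98 before that of *Ctsd*, 194 before that of *Gla*, 48 before that of *Glb1* and 73 before that of *Naglu*. *Ctsa*, *Ctsd* and *Gla* hold a further site that is not shown. A match is a description of the letters and not evidence of binding.

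The letters GAGGAAGT, or ACTTCCTC on the other strand, which myeloid factors of the ETS family such as PU.1 bind, were sought in the same windows after the values had been seen. They were in 5 of 37 members (*Ctsc*, *Ctss*, *Gla*, *Gusb* and *Ppt2*) and in 3.24% of all genes. Only *Gla* holds both motifs, and they do not overlap there. The sites of the 3 called members among them, in capitals, are shown because they lie in genes that moved in both directions:
Ctss (chr3:95526773-95526802, plus strand): aatgaaagttcACTTCCTCattgtggatgc
Ctsc (chr7:88277923-88277952, plus strand): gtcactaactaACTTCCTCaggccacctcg
Gusb (chr5:130003000-130003029, minus strand): atccaggacttcaagcgACTTCCTCtttct
In *Ctss*, which fell by 2.10, the site starts 2 bases before the start of the gene, and in *Ctsc*, which fell by 1.11, 151 bases before it. In *Gusb*, which rose by 1.06, it lies after the start.

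*Lipa* hydrolyzes cholesteryl esters and triglycerides that enter the lysosome with lipoproteins, and it is the gene disrupted in these mice. Its probe set (10467139) read 9.50 and 9.05 in lal+/+ cells against 7.37 and 7.49 in lal-/- cells. The genotypes did not overlap, and the 2 lal+/+ arrays stood farther apart than the 2 lal-/- arrays. The difference was -1.85 (standard error 0.17, adjusted p = 4.17e-04), a 3.60-fold lower level, and it ranged from -1.40 with a common median to -2.15 without lal+/+ replicate 2. Signal on the lal-/- arrays stayed above background (6.32 and 6.31), and which exons the probe set reads was not given in the sources used here. 5 related genes of chromosome 19 (*Lipk*, *Lipn*, *Lipm*, *Lipo3* and *Lipf*, of which the last encodes gastric lipase) were below background in both genotypes, and none was called.

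Lysosomal lipid breakdown beyond neutral lipids divided into members that rose and members that did not pass. *Galc* encodes galactosylceramidase, which is lost in Krabbe disease in humans. It read 7.38 and 7.04 in lal+/+ cells against 8.88 and 9.09 in lal-/- cells, a difference of 1.77 (standard error 0.16, adjusted p = 3.62e-04) or 3.41-fold. This was the largest increase among the members, and the genotypes were well apart. *Smpd1*, of acid sphingomyelinase, which turns sphingomyelin into ceramide, read 6.34 and 5.95 against 7.76 and 7.81. Its lal+/+ levels were below background, so that the fitted difference of 1.64 (standard error 0.16, adjusted p = 4.95e-04) stands beside a bound of at least 1.96-fold, computed against the background of those arrays. *Asah1*, whose acid ceramidase acts on the product of both, was 1.42-fold higher (0.50, adjusted p = 0.0329), under the 2-fold threshold, and reached 1.07 with a common median. *Ppt2*, of a palmitoyl thioesterase, read 5.98 and 5.81, below background, against 6.54 and 6.67, and its fitted difference of 0.71 (adjusted p = 0.00716) has no bound because the lal-/- levels were also under the lal+/+ background. *Ppt1*, of the thioesterase that removes fatty acids from proteins, had a difference of -0.32 (adjusted p = 0.0891).

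Members for sulfatides and gangliosides gave mixed values. *Arsa*, of the sulfatase that feeds sulfatide into the *Galc* reaction, read 5.73 and 5.64 against 5.57 and 5.59, all at background, so that no change could be judged. *Hexa*, the alpha subunit of beta-hexosaminidase, read 8.80 and 8.34 against 9.47 and 9.60. The difference of 0.96 (standard error 0.18, adjusted p = 0.00655) is just under the fold threshold, and it was 1.36 as deposited and 1.54 with a common median, past it in both, as it was without lal+/+ replicate 1 (1.21) and without lal-/- replicate 1 (1.01). *Gm2a*, the activator that presents ganglioside to hexosaminidase, had the opposite sign, with 9.31 and 9.38 against 8.76 and 8.77. Its difference of -0.58 (adjusted p = 0.0107) did not reach 2-fold, and with a common median the value was 0.012. *Psap*, the precursor of the saposins that activate *Galc* and other enzymes, was at -0.08 (95% confidence interval -0.38 to 0.22) and moved to 0.40 as deposited and 0.58 with a common median. *Pla2g15*, of a lysosomal phospholipase, was at -0.07 (-0.42 to 0.27). Of 10 measured genes of sphingolipid breakdown, a list that crosses the roles, 2 rose (20%, beside 7.56% of all genes), 0 fell and the median was 0.42.

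**Figure D3:**
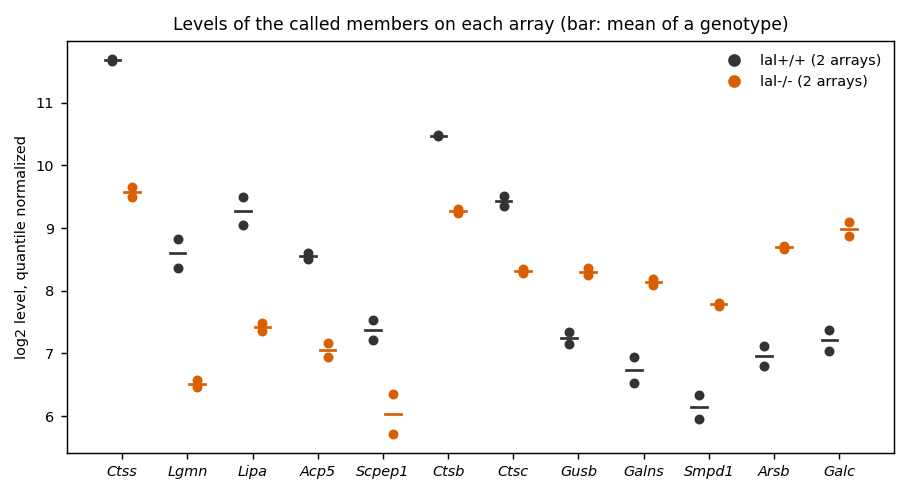
Log2 level of the 12 called members on each of the 4 arrays, 1 point for each array and a bar at the mean of a genotype, ordered by fold change. The lal+/+ and lal-/- points do not overlap in any of the 12. *Scpep1* shows the widest gap between the 2 lal-/- arrays, 6.35 and 5.72.

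Sulfatases of glycosaminoglycan breakdown included the largest increase outside lipids. *Arsb* encodes arylsulfatase B, which removes sulfate from dermatan sulfate and chondroitin sulfate and is lost in Maroteaux-Lamy syndrome in humans. The probe set 10406672 read 6.79 and 7.13 in lal+/+ cells and 8.67 and 8.72 in lal-/- cells, a difference of 1.73 (standard error 0.15, adjusted p = 2.99e-04). The other *Arsb* probe set (10406663) read 6.40 and 6.19 against 8.12 and 8.14, with both lal+/+ levels below background. Its fitted difference of 1.84 (standard error 0.13, adjusted p = 1.68e-04) had the same sign, and its size is limited by that background. *Galns*, of the sulfatase that acts on keratan sulfate and chondroitin 6-sulfate, read 6.53 and 6.95 against 8.18 and 8.10, a difference of 1.40 (standard error 0.16, adjusted p = 0.00104). Its level on lal+/+ replicate 1 (6.53) was below background. Both lal-/- arrays lay above both lal+/+ arrays in these genes.

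Enzymes of heparan sulfate breakdown did not move as 1 group. *Gusb*, of beta-glucuronidase, which acts on several glycosaminoglycans, read 7.15 and 7.34 against 8.36 and 8.25. Its difference of 1.06 (standard error 0.13, adjusted p = 0.00133) exceeded 2-fold narrowly, and was under it without lal+/+ replicate 1 (0.99) and without lal-/- replicate 1 (0.96). *Hgsnat*, the membrane acetyltransferase of the pathway, was 1.59-fold higher (0.67, adjusted p = 0.00806), and passed with a common median (1.16). *Idua*, of alpha-iduronidase, was 1.41-fold lower (-0.50, adjusted p = 0.0494). It was at -0.58 as deposited (adjusted p = 0.0171) and at -0.40 with a common median (adjusted p = 0.0669). *Ids*, of iduronate sulfatase, had a difference of -0.36 (-0.69 to -0.02), *Sgsh*, of heparan sulfamidase, -0.05 (-0.33 to 0.24), and *Naglu*, of alpha-N-acetylglucosaminidase, 0.24 (-0.06 to 0.55) at background. *Arsg*, a further sulfatase of this list, was at 0.87 (adjusted p = 0.00858), under the fold threshold. Of the 7 measured genes of this chain, 1 rose (14.3%, beside 7.56% of all genes) and 0 fell, and the median was 0.24. By adjusted p alone 3 were higher and 1 lower. *Sumf1*, which encodes the enzyme that activates sulfatases, was at 0.41 (adjusted p = 0.0514) with lal+/+ levels below background, and its relative *Sumf2* at -0.13.

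The glycosidases as a role had 1 gene that rose (*Gusb*) and 0 that fell among 12, with a median of 0.38, and 5 were higher by adjusted p alone. *Fuca1*, which removes fucose, read 9.72 and 9.52 against 10.27 and 10.32 (0.68, adjusted p = 0.00826), and passed the fold threshold as deposited (1.14) and with a common median (1.32). *Neu1*, the lysosomal sialidase, read 6.77 and 6.75 against 7.50 and 7.48 (0.73, adjusted p = 0.00401). Its level on lal+/+ replicate 2 (6.75) was below background. *Aga*, which cleaves the link between asparagine and the glycan, was at 0.52 (adjusted p = 0.0290) and at 1.12 with a common median. The mannosidases *Man2b1* (0.13) and *Manba* (0.43, below background in lal+/+ cells), alpha-galactosidase A *Gla* (0.33), beta-galactosidase *Glb1* (-0.05, below background in lal+/+ cells) and the glycogen-degrading *Gaa* (0.03, at background) did not pass. *Gla* had the widest spread of these, from 8.03 to 8.61 in lal+/+ cells. With a common median *Man2b1* was at 0.74 (adjusted p = 0.00317) and *Gla* at 0.84 (adjusted p = 0.0108), both under 2-fold. *Neu1*, *Glb1* and *Ctsa* encode proteins known to form 1 complex in the lysosome. Their log2 fold changes were 0.73, -0.05 and -0.72. Of 8 measured genes of N-glycan breakdown 1 rose (*Ctbs*, described with the further enzymes), 12.5% beside 7.56% of all genes. None fell, and the median was 0.60.

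Cysteine cathepsins and legumain were the role with the most decreases, as 4 of 8 fell, 0 rose and the median was -0.89. *Ctss* encodes cathepsin S, which cuts the invariant chain of MHC class II in antigen-presenting cells. It read 11.67 and 11.69 in lal+/+ cells and 9.65 and 9.50 in lal-/- cells. With a difference of -2.10 (standard error 0.13, adjusted p = 9.72e-05), or 4.29-fold, this was the largest decrease among the members. *Lgmn*, of legumain, which processes other cathepsins, read 8.83 and 8.36 against 6.57 and 6.46, a difference of -2.08 (standard error 0.17, adjusted p = 2.76e-04). The genotypes were far apart in both genes, and the calls held with every array left out and in each scaling tried.

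*Ctsb*, of cathepsin B, read 10.48 and 10.46 against 9.31 and 9.25 (-1.20, standard error 0.12, adjusted p = 5.45e-04). *Ctsc*, of the dipeptidyl peptidase that activates serine proteases of granules, read 9.51 and 9.35 against 8.35 and 8.29 (-1.11, standard error 0.13, adjusted p = 9.23e-04). Replicates of these genes lay close together, yet the fold calls ended in both other scalings. *Ctsz*, of cathepsin Z, was 1.60-fold lower (-0.68, adjusted p = 0.00732), under the fold threshold. It was at -0.41 as deposited (adjusted p = 0.0600) and at -0.23 with a common median (adjusted p = 0.305). *Ctsh* (-0.15, 95% confidence interval -0.47 to 0.16) and *Ctsl* (0.34, 0.05 to 0.62, adjusted p = 0.0797) did not pass, and *Ctsh* turned to 0.23 as deposited and 0.41 with a common median. *Ctsl* was at 0.70 as deposited (adjusted p = 0.00374) and at 0.87 with a common median (adjusted p = 8.04e-04), under 2-fold in both. *Ctsk*, known from osteoclasts, was at background in both genotypes (6.04 and 6.02 against 6.24 and 6.20). Of the cystatins, inhibitors of these proteases, *Cst7* was at 0.90 (adjusted p = 0.00199), *Cstb* at 0.37, *Cst3* at 0.35 and *Cst6* at 0.18, and none was called.

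Markers of other cells were read on the same arrays. Of 12 macrophage markers 9 were called lower (75%, beside 3.24% of all genes) and 0 higher. All 12 were lower by adjusted p, beside 9.85% of all genes, with a median difference of -2.02. Their median level ranged from 8.46 to 8.56 over the lal+/+ arrays and from 6.17 to 6.36 over the lal-/- arrays. In lal-/- cells *Mrc1*, *C1qb*, *C1qc*, *Mertk*, *Cd163* and *Spic* were at background. *Mrc1*, the mannose receptor, was at least 10.6-fold lower and *Spic*, a transcription factor of red pulp and bone marrow macrophages, at least 3.58 lower on the log2 scale, both computed against background. *Ctss*, *Lgmn*, *Ctsb*, *Ctsc*, *Lipa* and *Acp5*, named here because they fell, are known to be expressed by macrophages. The 31 members not called, such as *Ctsd* (0.28) and *Psap* (-0.08), were not sorted by the cells that express them. The part of macrophages in the lower levels was not tested. Of 8 monocyte markers 2 fell (*Csf1r*, -1.43, and *Cx3cr1*, -1.20), 25% beside 3.24% of all genes. *F13a1* rose from below background (at least 2.27-fold), 12.5% of the list beside 7.56% of all genes. Of 9 B cell markers, cells that also express *Ctss*, 7 fell (77.8%, beside 3.24% of all genes), with a median of -3.29. Median levels of the B cell list ranged from 9.21 to 9.62 against 6.41 to 6.43. Of 6 T cell markers 3 fell (50%) and 1 rose (16.7%), and of 6 plasma cell markers 3 fell (50%) and 0 rose. Over all genes 3.24% fell and 7.56% rose.

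Among aspartic and serine proteases 1 of 4 fell. *Scpep1*, of a serine carboxypeptidase, read 7.21 and 7.53 against 6.35 and 5.72, a difference of -1.33 (standard error 0.23, adjusted p = 0.00479). Its lal-/- arrays were the most uneven of the called members, and without lal-/- replicate 2 the difference was -0.97, under the fold threshold. Its level on that array (5.72) was below background. *Ctsa*, of the protective protein for *Neu1* and *Glb1*, was 1.65-fold lower (-0.72, adjusted p = 0.00778). It was at -0.38 as deposited (adjusted p = 0.0769) and at -0.20 with a common median (adjusted p = 0.365). *Tpp1*, of tripeptidyl peptidase, was at -0.45 (adjusted p = 0.0691), and *Ctsd*, of the main aspartic protease of lysosomes, at 0.28 (-0.05 to 0.61). *Ctsd* depended on the scaling, with 0.65 as deposited (adjusted p = 0.0125) and 0.83 with a common median (adjusted p = 0.00333), under 2-fold in both.

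The remaining members gave 1 decrease. *Acp5*, of tartrate-resistant acid phosphatase, known from osteoclasts and macrophages, read 8.61 and 8.51 against 7.17 and 6.95 (-1.50, standard error 0.14, adjusted p = 3.62e-04). *Acp2*, of a further acid phosphatase (0.09), *Dnase2a*, of the acid nuclease (-0.23), and *Gnptab*, of the enzyme that starts the mannose 6-phosphate tag (-0.47, adjusted p = 0.169), did not pass. *Gnptab* was the least precise of these, with lal+/+ arrays at 7.49 and 6.87.

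Osteoclast markers stand beside *Acp5*. Of 8, *Itgb3*, an integrin shared with megakaryocytes, rose by 1.54 (12.5%, beside 7.56% of all genes) and 0 fell. *Calcr*, *Dcstamp* and *Oscar* were at background in both genotypes. None of 7 stromal and 4 erythroid markers was called. Of 8 genes of mature neutrophils 2 rose and 2 fell, 25% each, beside 7.56% and 3.24% of all genes. Granule genes of neutrophils were higher, with 5 of 6 for primary granules (83.3%, median 2.93) and 6 of 8 for secondary granules (75%, median 1.47) called. Over all genes 7.56% were called higher. *Ly6g*, whose product was used to select the cells, rose by 2.88, from 10.19 and 9.80 to 12.91 and 12.84, and *Itgam*, of CD11b, by 1.19. Median levels of the primary granule list ranged from 5.41 to 5.47, below background, against 8.40 to 8.46. The part of these cells in the higher levels of *Galc*, *Arsb*, *Smpd1*, *Galns* and *Gusb* was not tested.

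**Figure D4:**
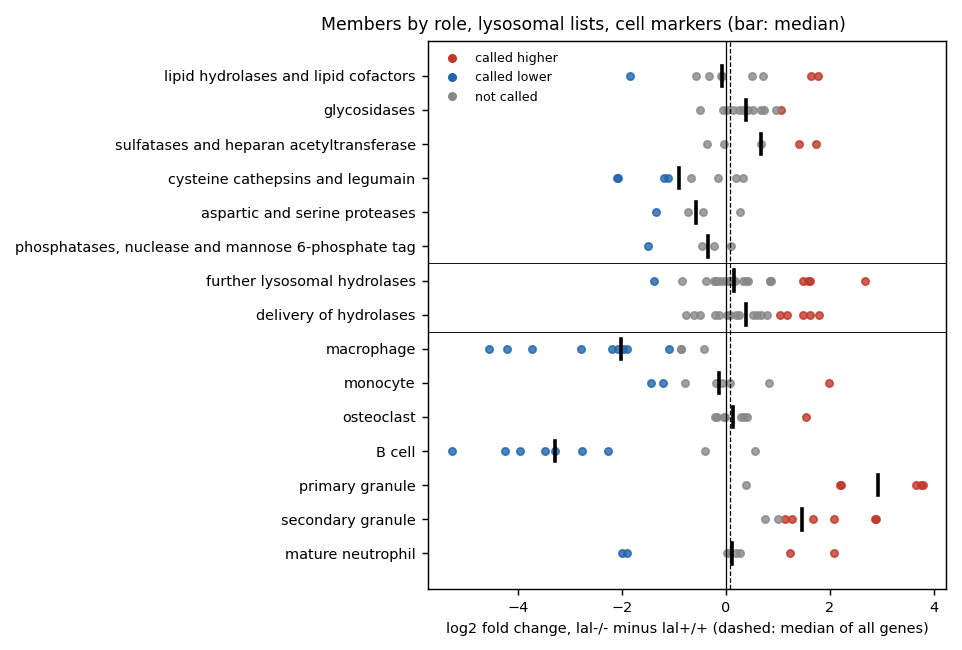
Log2 fold change (lal-/- minus lal+/+) of each gene in the 6 roles of the members, 2 further lysosomal lists and 7 lists of cell markers, with a bar at each list's median and a dashed line at the median of all genes (0.08). The macrophage list is centered at -2.02 and the primary granule list at 2.93, while the lipid hydrolases hold genes on both sides.

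Lysosomal genes beyond the members were described from lists written for this purpose. Of 22 further hydrolases and lysosomal enzymes, 4 rose (18.2%, beside 7.56% of all genes) and 1 fell (4.55%, beside 3.24%), with a median of 0.15. *Ggh*, of gamma-glutamyl hydrolase, read 6.12 and 5.39, at background, against 8.26 and 8.58, an increase of at least 3.05-fold over that background. *Plbd1*, of a phospholipase B-like protein, rose by 1.61 (adjusted p = 2.14e-04), *Ctbs*, which trims the core of N-glycans, by 1.58 and *Smpdl3a*, a relative of *Smpd1*, by 1.48. *Ctso*, of cathepsin O, fell by 1.37 (adjusted p = 9.27e-04). *Ctse*, of an endosomal aspartic protease, was 0.84 higher (adjusted p = 0.00227), under the fold threshold.

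Of 18 genes for the delivery of hydrolases, 5 rose (27.8%, beside 7.56% of all genes) and 0 fell, with a median of 0.39. By adjusted p alone 9 were higher and 2 lower. *Sort1*, of sortilin, a receptor for several of the enzymes above, read 7.63 and 7.38 against 9.32 and 9.27, and rose by 1.79 (adjusted p = 2.09e-04). *Igf2r*, the large mannose 6-phosphate receptor, read 7.11 and 6.75 against 8.03 and 8.20, and rose by 1.18. Its level on lal+/+ replicate 2 (6.75) was below background. *Sort1* and *Igf2r* were higher on both lal-/- arrays. *Scarb2* (-0.50, adjusted p = 0.0684) and *Sorl1* (-0.21, adjusted p = 0.256), of the same list, were lower on both lal-/- arrays and not called. Of 5 measured subunits of the adaptor AP-1, which loads such receptors into vesicles, 3 rose (*Ap1s2*, 1.62, *Ap1m1*, 1.04, and *Ap1s1*, at least 1.47-fold over background). *Ap1g1* (0.53, adjusted p = 0.0166) and *Ap1b1* (0.25, adjusted p = 0.165) were not called. *Gnptg*, the partner of *Gnptab*, was at 0.79 (adjusted p = 0.00284), and *Gga3*, another adaptor of the receptors, at -0.62 (adjusted p = 0.0178), both under the fold threshold. *Gga2*, of the same family, was below background in lal-/- cells, and its fitted difference of -0.78 (adjusted p = 0.0130) stands beside a bound of at least 1.42-fold lower.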

How the data were processed

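RNA of Ly6G+ bone marrow cells of 2 lal+/+ and 2 lal-/- arrays was measured on Mouse Gene 1.0 ST chips of Affymetrix. Before deposition the authors ran RMA in Partek Genomics Suite, so that the deposited values are log2 levels of 35557 probe sets. The submitters' processing notes name GCOS 1.1. The labels and the methods name different amplification kits. The gene table names several genes for 1621 probe sets, which were not used, and 1 gene for 21789. Of the latter, 21698 could be matched to a current symbol, and for 91 the symbol was left as given.

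The deposited medians differed by up to 0.208, so the columns were quantile normalized, which gives all arrays 1 distribution. A linear model of genotype was fitted by limma 3.58.1 (R 4.3.3), whose variances were moderated with 4.83 prior beside 2 residual degrees of freedom. The Benjamini-Hochberg adjustment covered the 21789 probe sets that name 1 gene. Depth does not apply to arrays, whose number limits the precision. The procedure was tested on simulated data, in which few genes were changed by known amounts and only quantile normalization was used. That does not test the choice of scaling. The call thresholds follow the methods. Bounds use the background of each array in place of levels below it.

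Members, gene lists and tests were chosen with earlier results of these data known. Every member is named. The rule for other lists was up to 4 called genes in each direction by size, with *Ly6g*, *Itgam* and the TFEB family. This rule was not followed in full. Called markers such as *Vcam1* (-3.73), *Ms4a1* (-5.26), *Cd2* (-4.40) and *Cd3d* (2.42) are not named with their lists. Genes named beyond the rule, such as *Ap1m1*, macrophage markers at background and uncalled genes, were chosen after their values were seen. The tissue term of the study's model cannot be fitted to 1 tissue. Scaling, filters, variance models, a replicate block and each array left out were the alternatives, and a crossed block was added after the data were seen.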

Additional observations from a re-analysis of the deposited data

How the results depend on the processing

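The 5 higher and 7 lower members were the same 12 genes when adjusted over all probe sets, with trended robust variances, at an adjusted p under 0.01, with probe sets averaged per gene, with dim probe sets left out (median level 6.27, 38 members kept) and with the replicate block or the crossed block. Replicate numbers are not said to pair arrays, and same-numbered arrays deviated apart (correlation -0.18 across probe sets). With the replicate block 5 members were higher and 7 lower, with a median of -0.05. With a common median 10 were higher (median 0.18), and with the values as deposited the median was -0.0011. Without the fold threshold 12 were higher and 11 lower. An ordinary linear model called 0 and 0 after adjustment, with 21 members and 5691 genes at an unadjusted p under 0.05 (28 members with limma). With 1 array left out 5 to 5 members were higher and 6 to 7 lower, and the median ranged from -0.031 to 0.063, the latter without lal-/- replicate 1. *Gusb* ranged from 0.96 to 1.22, *Scpep1* from -1.61 to -0.97 and *Hexa* from 0.75 to 1.21, past 2-fold without lal+/+ replicate 1 or lal-/- replicate 1.

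None of the members whose sign changed was called in any scaling. With a common median they were *Glb1* (0.0098), *Sgsh* (0.033), *Ctsh* (0.41), *Ppt1* (0.18), *Psap* (0.58), *Gm2a* (0.012) and *Pla2g15* (0.028), and with the values as deposited *Gaa* (-0.16), *Ctsh* (0.23), *Ctsk* (-0.0045) and *Psap* (0.40). With 1 array left out *Glb1* ranged from -0.21 to 0.11, *Gaa* from -0.081 to 0.14, *Acp2* from -0.093 to 0.27 and *Pla2g15* from -0.21 to 0.063. Both arrays were below background for 8 members in lal+/+ cells and for 4 in lal-/- cells, which limits what their differences show.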
